A study of Mus musculus with 4 samples.

Results

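Glycolysis and hypoxia response genes were followed through the cell types of 4T1 tumours, a mouse mammary carcinoma model, by single-cell RNA sequencing. The set held 33 of the 55450 genes in the matrix and was chosen by gene symbol: 22 glycolytic genes (enzymes, their regulators, and glucose and lactate transporters) and 11 hypoxia response genes. All 33 had reads, in 34 rows of the matrix, because Aldoa had a second row with 3 UMIs that was added to the first. A UMI is a tag that marks 1 captured RNA molecule.

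BALB/c female mice of 6 to 8 weeks received 1000000 4T1 cells in the right flank, and on day 7 an intravenous injection of either PBS or TIOs, light-controlled oncolytic particles that the study made from frozen macrophages carrying nanoparticles. Near-infrared light (NIR) of 980 nm at 1.0 W cm-2 followed both injections for 5 min a day from day 8 to day 10, and tumours were taken on day 13. By the labels, 2 samples were PBS and 1 was TIOs+NIR, and 1 stayed in neither group because its title reads PBS while the protocol gives it TIOs. The barcodes fell into 4 libraries by their suffix, and no source used here tied a library to a sample, so every library was a sample of unknown treatment. The treatments are therefore not compared and no statistical test was made.

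Glycolysis splits glucose into pyruvate, and lactate dehydrogenase turns pyruvate into lactate, which leaves the cell through monocarboxylate transporters. When oxygen falls, prolyl hydroxylases stop marking hypoxia-inducible factor for destruction, and the factor then switches on glucose transporters, most glycolytic enzymes and genes for acid balance, collagen folding, mitophagy and lipid storage. Solid tumours are known for poorly perfused zones where this programme is active, and neutrophils are known to rely on glycolysis with few mitochondria.

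Of 33064 barcodes, 32133 passed a filter of at least 300 genes and at most 15% mitochondrial UMIs, with a median of 2642 to 11700 UMIs per cell in the 4 libraries. A pair of libraries shared 11 to 23 barcode sequences. Cells were sorted into types by marker genes, which named 80.3% of them, and 12 types had at least 50 cells in a library. Neutrophils, monocytes, macrophages, fibroblasts and T cells reached 50 cells in every library, and tumour or epithelial cells only in library 1 with 3545 cells and in library 2 with 223. The cells had been sorted for CD45, the product of Ptprc, yet 13.8% and 23.3% of tumour or epithelial cells held a Ptprc UMI, against 64.1% to 75.6% of neutrophils, and Ptprc stood at 10.7 and 9.68 against 585 to 918 counts per 1000000 UMIs (CPM). In fibroblasts it was 9.96 to 25.9 CPM. Every marker of the macrophage, T cell and fibroblast lists was highest in its own type in each library where that type had 50 cells, and 7 of 8 for neutrophils, but only 2 of 7 for monocytes, so "monocyte" is used here as the name of that marker gate. The gate used these same markers, so their order is no independent check of the names. All levels below are CPM summed over the cells of a type in 1 library, and intervals are 95% Poisson intervals that cover counting error only. The libraries counted 3' ends, so levels are compared between cell types and not between genes. A sum over cells does not tell fewer expressing cells from less RNA in each, so shares of cells with a UMI are given where that matters.

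The members took 1.08% to 1.53% of all UMIs in the 4 libraries. The median cell gave 0.334% to 1.58% of its UMIs to the glycolytic members, depending on type and library, and no type was highest in every library. Neutrophils gave 1.26% in library 1 but 0.709%, 0.691% and 0.746% in libraries 2, 3 and 4. Fibroblasts gave 0.856%, 0.480%, 1.203% and 1.15%, and macrophages 0.910%, 0.439%, 0.805% and 0.883%. Library 2 was the lowest of the 4 in fibroblasts, macrophages and monocytes, and in the same library tumour or epithelial cells had 1.58%, the highest median of any type and library. In library 1 those cells gave 1.01%. The smallest share was that of plasmacytoid dendritic cells, at 0.334%, measured in library 4 alone, and endothelial cells of library 2 and NK cells of library 4 followed at 0.397% and 0.398%. Summed over cells, 1.48% of the UMIs of tumour or epithelial cells in library 2 were glycolytic, with a counting interval of 1.48% to 1.49%.

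The hypoxia response members were ordered differently. Their median share in neutrophils was 0.163%, 0.145%, 0.222% and 0.0966%, and in macrophages 0.0529%, 0.107%, 0.162% and 0.102%, so neutrophils were higher in 3 of 4 libraries. Monocytes, at 0.0892%, 0.178%, 0.244% and 0.117%, were higher than macrophages in 4 of 4. With every cell thinned to 1000 UMIs, where medians move in steps of 1 UMI and often tie, these counts were 1 of 4 and 2 of 4. Hilpda was the largest single member in neutrophils, at 992, 1152, 2189 and 550 CPM. Summed over neutrophils, all hypoxia response members gave 0.238%, 0.221%, 0.301% and 0.159% of UMIs. In library 3 Ndrg1 and Bnip3 were lower in neutrophils (152 and 194 CPM) than in macrophages (519 and 257 CPM). Egln3, Ankrd37 and P4ha1 were higher there. The order is thus that of a sum, and the order without Hilpda is not reported here. In tumour or epithelial cells the median was 0.0680% in library 1 and 0.243% in library 2. Plasmacytoid dendritic cells were again lowest, at 0.0276%.

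**Figure D1:**
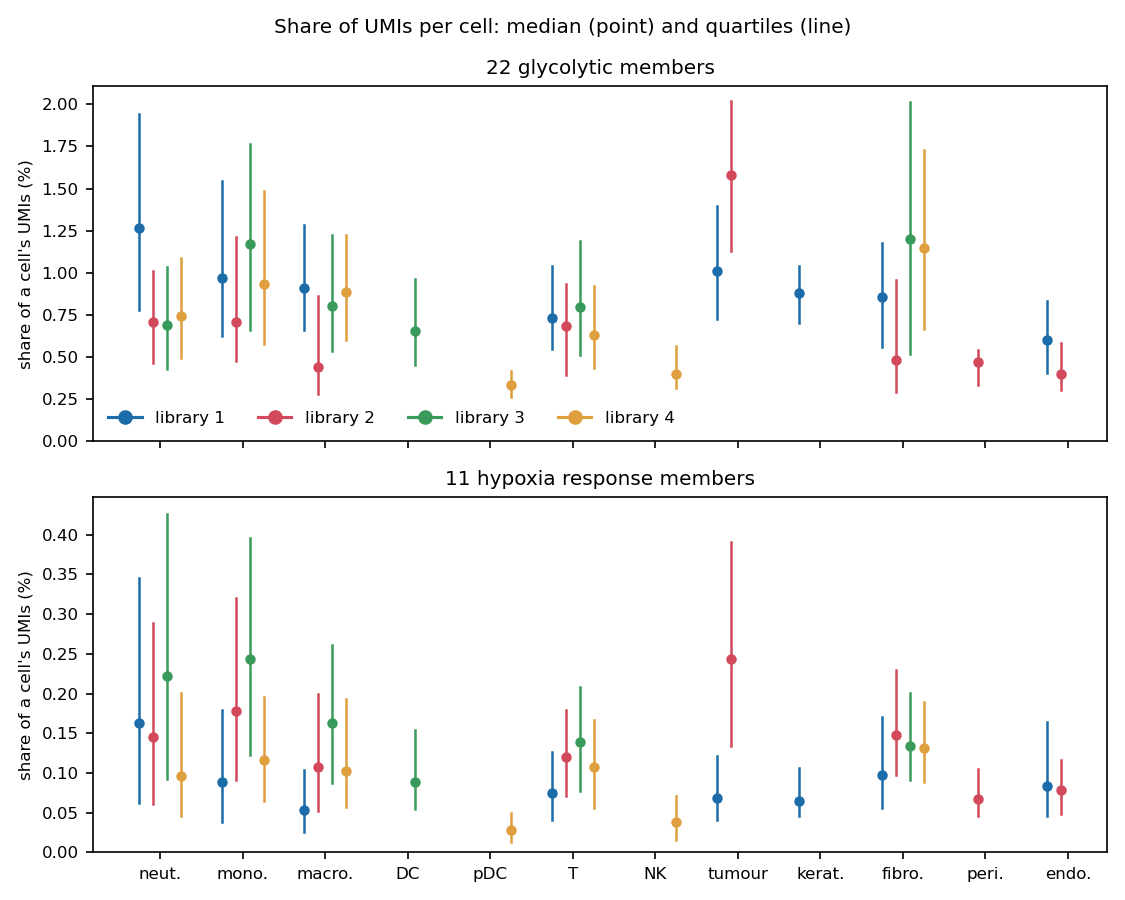
Share of each cell's UMIs (%) that came from the 22 glycolytic members (top) and the 11 hypoxia response members (bottom), by cell type and library, with points for the median cell and lines for the quartiles. The glycolytic share was 1.58% in tumour or epithelial cells of library 2 and 0.439% in macrophages of the same library.

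The members were then compared gene by gene between cell types. Neutrophils, monocytes, macrophages and fibroblasts, called the 4 common types here, had 50 cells in all 4 libraries. T cells did too, but were left out of these counts. Among the 4 common types, 17 of 33 members were at least 2-fold apart between the highest and the lowest type in every library. For 14 members 1 of the 4 types led in every library. Neutrophils led 8 of them: Pfkp, Pfkfb3, Pfkfb4, Slc2a1, Slc2a3, Slc16a3, Egln3 and Hilpda. Fibroblasts led 6: Pfkm, Slc16a1, Pdk1, P4ha1, P4ha2 and Adm. The fibroblast and macrophage intervals overlapped for Pdk1 in libraries 1, 2 and 3 and for Pfkm in libraries 1 and 3. Neither macrophages nor monocytes led any member in all 4 libraries, and for 19 members the leading type changed with the library. These counts were made over the members only, so no share of all genes stands beside them, and they are not read as particular to the members. Between neutrophils and macrophages alone, 6.88% of 10103 genes were at least 2-fold higher and 27.8% at least 2-fold lower in neutrophils in every library.

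**Figure D2:**
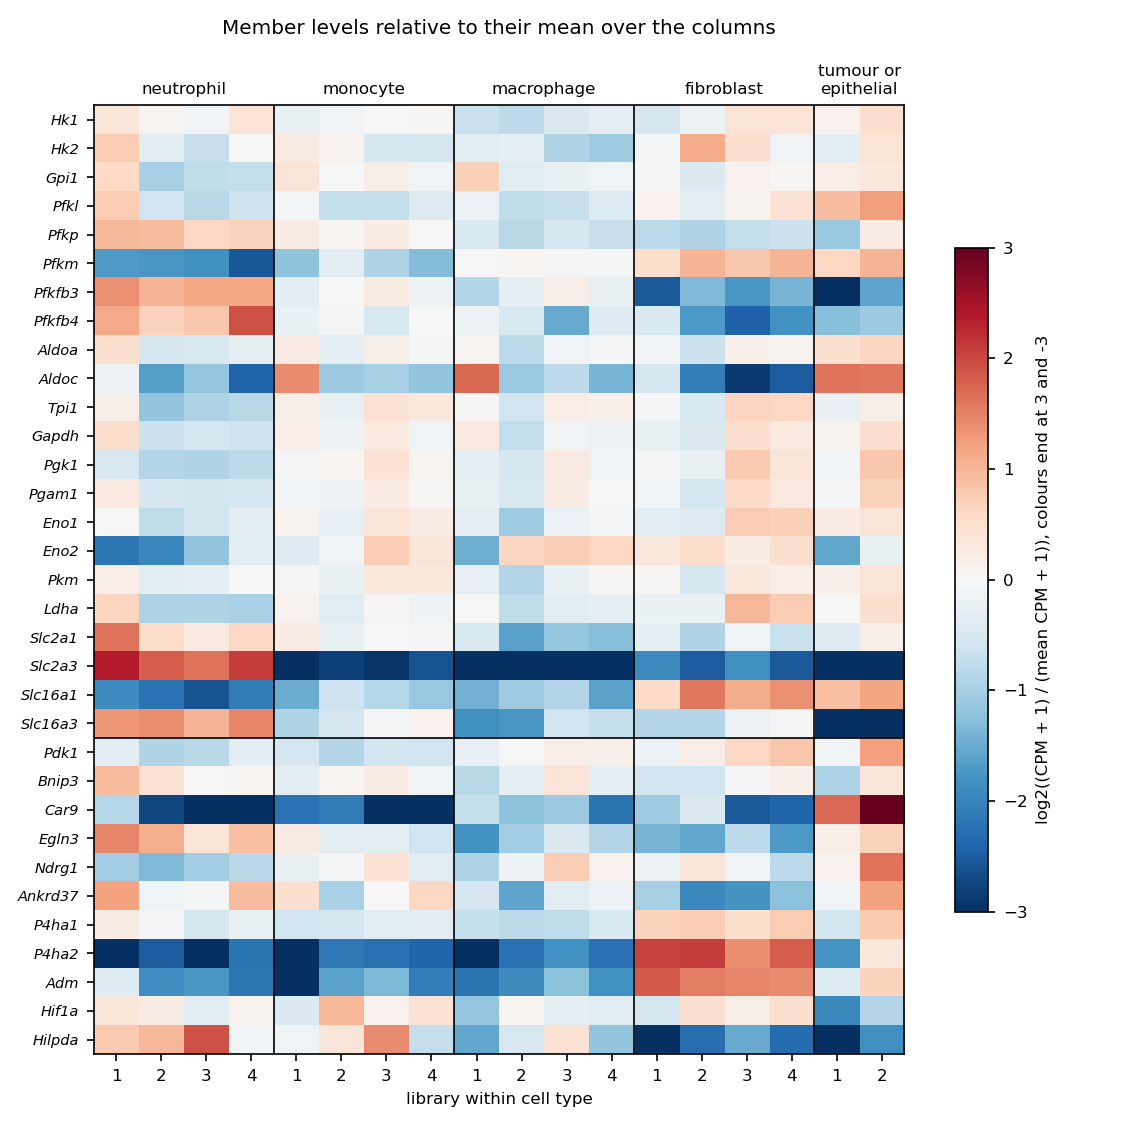
Level of each member by cell type and library, as log2((CPM + 1) / (mean CPM + 1)) against its mean over the 18 columns shown, with glycolytic members above the line and hypoxia response members below. Slc2a3 and Slc16a3 stand out in neutrophils, P4ha2 and Adm in fibroblasts, and Car9 in tumour or epithelial cells.

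The glucose transporters divided by cell type. Slc2a3 encodes GLUT3, a high-affinity glucose carrier of neurons and leucocytes. Its level in neutrophils was 182.5, 122, 108.5 and 147 CPM in libraries 1 to 4, and in macrophages 3.20, 2.90, 1.85 and 2.84 CPM. The 2 sets of levels did not overlap, and neutrophils were 57.1-fold, 42.1-fold and 51.8-fold higher in libraries 1, 2 and 4. In library 3 the macrophage level came from 2 UMIs, and the ratio was 58.6 with a counting interval of 16.16 to 484.8. Monocytes had 1.52 to 4.76 CPM, and neutrophils exceeded them 30.1-fold to 30.9-fold in libraries 2 to 4, while the 1 UMI of library 1 gave a ratio of 120 with a counting interval of 21.29 to 4751. T cells lay between, at 81.7, 35.6, 51.1 and 49.1 CPM, and tumour or epithelial cells had 0.915 and 1.18 CPM. Slc2a1 encodes GLUT1, the widely used basal glucose carrier. It was present in all 12 types, and in neutrophils it reached 503, 238, 199.6 and 249.7 CPM against 117, 52.2, 72.2 and 66.4 CPM in macrophages. Of the UMIs of both transporters together, Slc2a3 gave 26.6% to 37.1% in neutrophils, 43.1% to 52.6% in T cells, 4.75% to 5.99% in fibroblasts and under 1% in tumour or epithelial cells.

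The lactate transporters split in opposite directions in tumour or epithelial cells and in neutrophils. Slc16a3 encodes MCT4, which exports lactate from highly glycolytic cells, and Slc16a1 encodes MCT1, which can carry lactate either way. Slc16a3 in neutrophils was 658, 704, 543 and 739 CPM, above the other types in each library. In tumour or epithelial cells it was 4.62 CPM (4.14 to 5.14) in library 1 and 9.46 CPM (7.59 to 11.7) in library 2. Slc16a1 had the reverse order, with 7.83, 6.00, 4.32 and 6.62 CPM in neutrophils and 59.8 and 73.4 CPM in tumour or epithelial cells. Fibroblasts carried both, with Slc16a1 at 47.3, 96.1, 69.5 and 82.4 CPM and Slc16a3 at 144.5, 146, 237.5 and 256 CPM. Slc16a1 made up 0.790% to 1.18% of the UMIs of the pair in neutrophils and 88.6% and 92.8% in tumour or epithelial cells. Neutrophils and tumour or epithelial cells thus held opposite transporters in both libraries where both were counted.

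**Figure D3:**
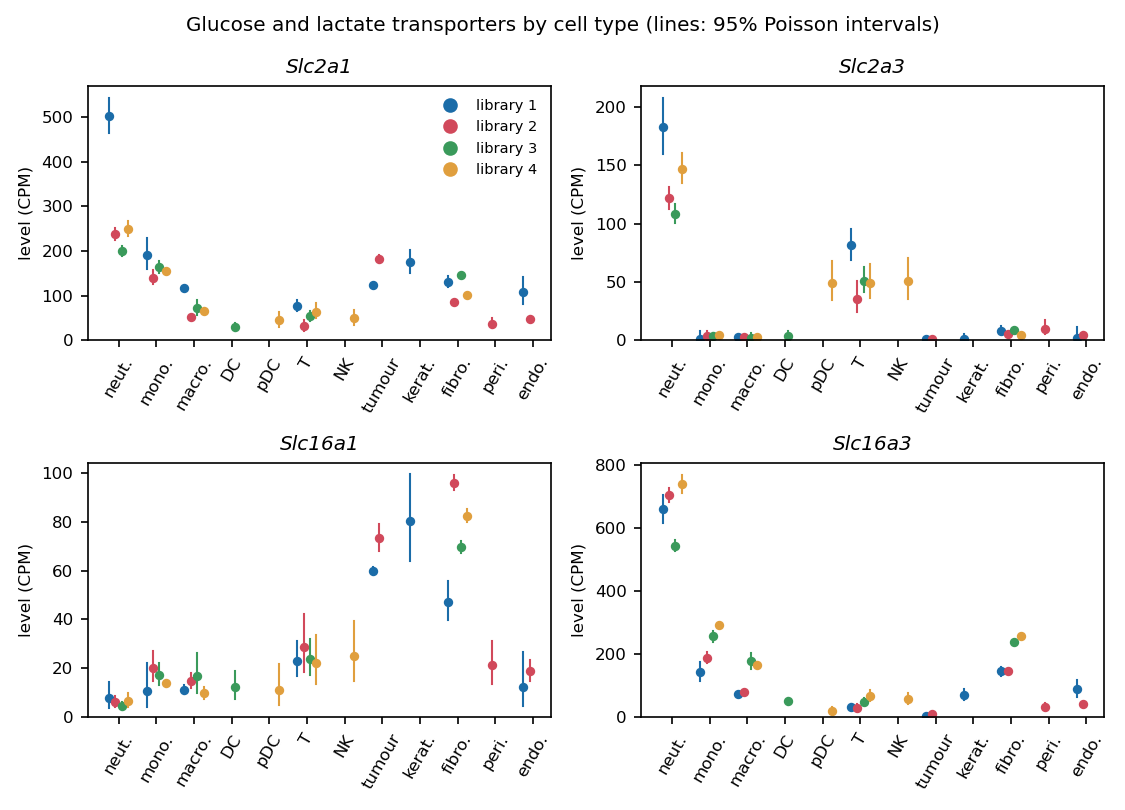
Level (CPM) of the glucose transporters Slc2a1 and Slc2a3 and of the lactate transporters Slc16a1 and Slc16a3 in 12 cell types, 1 point per library, with lines for the 95% Poisson interval. Slc2a3 and Slc16a3 were highest in neutrophils, and tumour or epithelial cells had Slc16a1 at 59.8 and 73.4 CPM with Slc16a3 at 4.62 and 9.46 CPM.

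At the entry of the pathway, hexokinase traps glucose as glucose 6-phosphate. Hk2, the inducible hexokinase, was 166, 77.9, 60.7 and 97.6 CPM in neutrophils and 95.3, 212, 140 and 90.3 CPM in fibroblasts, so that the 2 types changed order between libraries. In endothelial cells Hk2 had 1 UMI in library 1 and 41 in library 2. Hk1, the constitutive form, stood there at 105.7 and 76.8 CPM, the highest level of any type in these libraries, although in library 2 the interval overlapped that of tumour or epithelial cells, and gave 98.1% (89.9% to 99.95%) and 88.8% (85.2% to 91.9%) of the hexokinase UMIs. In neutrophils Hk1 gave 26.6% to 42.0%.

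Phosphofructokinase, which commits sugar to glycolysis, is built from the products of Pfkl, Pfkp and Pfkm. Pfkp in neutrophils was 230.3, 226, 181 and 191 CPM against 83.2, 65.6, 82.4 and 72.7 CPM in macrophages, at least 2.20-fold higher in every library. T cells had 153, 87.9, 168.5 and 163 CPM, and their interval overlapped that of neutrophils in library 3. NK cells, counted in library 4 alone, had 198.5 CPM, and their interval overlapped that of neutrophils too. In tumour or epithelial cells Pfkl, the liver form, was 203 and 254 CPM and gave 77.1% and 62.8% of the UMIs of the family. Pfkm, the muscle form, had 0 to 4 UMIs in the neutrophils of a library, at most 0.783 CPM, and 7.38, 10.8, 9.19 and 10.7 CPM in fibroblasts. The 4 neutrophil libraries lay below all 4 fibroblast libraries.

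Pfkfb3 and Pfkfb4 make fructose 2,6-bisphosphate, the activator of phosphofructokinase. Pfkfb3 in neutrophils was 161, 126.5, 139 and 141 CPM, and in tumour or epithelial cells 5.67 and 20.1 CPM. Dendritic cells, which reached 50 cells only in library 3, had 448 CPM (416 to 481), and 87.4% of them held a Pfkfb3 UMI. Pfkfb4 in neutrophils was 51.7, 37.6, 40.8 and 89.0 CPM, 2.31-fold to 5.50-fold above macrophages. Both regulators were thus highest in neutrophils among the 4 common types.

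For most of the lower enzymes the leading type changed with the library. Gapdh, which makes the first NADH of the pathway, was 3855, 1704, 1899 and 1752 CPM in neutrophils and 2312, 1976, 3798 and 3292 CPM in fibroblasts. Ldha, the lactate dehydrogenase subunit, was 1832, 612, 626 and 600.1 CPM in neutrophils and 1014, 1011, 2352 and 1984 CPM in fibroblasts. In both genes neutrophils were above fibroblasts in library 1 and below them in libraries 2, 3 and 4. Pgk1, Pgam1, Tpi1, Eno1, Aldoa, Gpi1 and Pkm had no leading type common to the 4 libraries either. Pgk1, which makes the first ATP of the pathway, was 438 to 591.5 CPM in neutrophils and 710 to 1426 CPM in fibroblasts, and in tumour or epithelial cells it was 774 CPM in library 1 and 1454 CPM in library 2. Pgam1, the phosphoglycerate mutase, was 514 to 917 CPM in neutrophils, 521 to 1124 CPM in fibroblasts and 347 to 426 CPM in T cells. Tpi1 was 311 to 801 CPM in neutrophils and 464 to 808.5 CPM in macrophages. Gpi1, which turns glucose 6-phosphate into fructose 6-phosphate, was 196 to 600.1 CPM in neutrophils and 303.5 to 644.5 CPM in macrophages. For Aldoa, aldolase A, the ranges were 745 to 1471 and 603 to 1123 CPM, for Eno1, enolase 1, 387 to 646 and 313 to 634 CPM, and for Pkm, pyruvate kinase, 1228 to 1771 and 833 to 1580 CPM. The neutrophil and macrophage ranges overlapped for each of these 5 genes. Several of these enzymes are genes with near-identical copies in the genome. In the kept cells Eno1b had 3652 UMIs beside 272011 of Eno1, and the copies of Gapdh, Ldha, Pgk1, Pgam1 and Aldoa that were counted had at most 37 UMIs each, so reads lost to unlisted or unassigned copies were not measured.

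The minor isozymes Aldoc and Eno2 had no leading type common to the 4 libraries among the 4 common types. Aldoc, the brain form of aldolase, was 53.5 and 51.8 CPM in tumour or epithelial cells, where it was 4.69-fold and 16.3-fold above fibroblasts. In macrophages Aldoc was 56.6 CPM in library 1 and 5.69 to 9.26 CPM in the others. Eno2, the neuronal enolase, was lower in neutrophils than in fibroblasts in every library. The levels were 2.35, 2.91, 5.71 and 11.2 CPM against 17.8, 20.8, 16.8 and 20.3 CPM. In macrophages Eno2 was 4.51, 22.7, 24.1 and 22.2 CPM, above fibroblasts in libraries 2, 3 and 4.

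Hypoxia-inducible factor is known to bind ACGTG and GCGTG, so RefSeq promoters of the members (GRCm38.p6, 250 bases before the start site) were searched for these letters on both strands. Of the members, 31 had a promoter in the table, 45 in all, and 36 of these (80%) held a match, against 38.6% of the 32851 promoters of all genes. Member promoters also held more CpG dinucleotides, with a median of 14 against 6, and both motifs contain a CpG. The share was 78.8% for glycolytic and 83.3% for hypoxia response members. Many members belong to classes of genes that the factor is known to switch on, so these shares are no independent test of the set. A gene with several promoters was counted once for each, and the promoters of all genes were not matched for CpG. Stretches of 150 bases are shown for 3 glycolytic members that were higher beside hypoxia response UMIs in every cell type and library compared below (Slc2a1, Pgk1 and Pgam1), for the hypoxia response member Bnip3, and for 2 that fibroblasts led (P4ha1 and Adm), with the matching letters in capitals (CACGT and CACGC are the same motifs on the other strand). They run 5' to 3' on the strand of the gene, lie outside annotated exons, and end just before the start site, or 35 bases before it for Slc2a1 and 14 for Bnip3.
Slc2a1 (chr4:119108561-119108710, plus strand): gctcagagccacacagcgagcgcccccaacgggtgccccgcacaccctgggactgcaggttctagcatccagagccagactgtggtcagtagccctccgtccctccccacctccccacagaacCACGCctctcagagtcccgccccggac
Pgk1 (chrX:106186950-106187099, plus strand): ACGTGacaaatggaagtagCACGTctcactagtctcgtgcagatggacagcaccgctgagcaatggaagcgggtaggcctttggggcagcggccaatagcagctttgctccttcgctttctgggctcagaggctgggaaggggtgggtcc
Pgam1 (chr19:41911721-41911870, plus strand): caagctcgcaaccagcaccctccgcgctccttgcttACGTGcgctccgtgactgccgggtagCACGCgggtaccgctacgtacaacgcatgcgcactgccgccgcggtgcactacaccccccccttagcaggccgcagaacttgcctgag
Bnip3 (chr7:138909520-138909669, minus strand): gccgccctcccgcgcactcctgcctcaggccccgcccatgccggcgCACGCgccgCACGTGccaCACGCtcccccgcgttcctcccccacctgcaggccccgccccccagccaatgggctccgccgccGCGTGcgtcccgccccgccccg
P4ha1 (chr10:59323146-59323295, plus strand): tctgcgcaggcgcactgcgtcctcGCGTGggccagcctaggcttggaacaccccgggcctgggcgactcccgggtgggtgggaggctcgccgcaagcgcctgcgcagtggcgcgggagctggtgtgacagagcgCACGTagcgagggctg
Adm (chr7:110627507-110627656, plus strand): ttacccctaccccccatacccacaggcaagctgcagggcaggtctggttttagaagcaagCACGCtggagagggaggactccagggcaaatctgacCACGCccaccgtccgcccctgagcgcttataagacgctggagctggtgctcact
A match is a string of letters and no evidence of binding, and 2 of the 5 matches of Bnip3 overlap in CACGTG. Other glycolytic members were also higher in every comparison below. Of these, Tpi1 and Gpi1 had 0 matches in their promoters.

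Among the hypoxia response members, Hilpda, which blocks triglyceride breakdown and lets lipid droplets grow, was led by neutrophils. Its level there was 992 (938 to 1048), 1152 (1124 to 1180), 2189 (2153 to 2225) and 550.0 CPM (526 to 575). In macrophages Hilpda was 196, 417.5, 787 and 255 CPM and in tumour or epithelial cells 41.4 and 161 CPM. Within each library neutrophils were above macrophages, by 2.16-fold to 5.06-fold, and in both types library 3 was the highest. Monocytes, with 527, 744, 1548 and 350 CPM, stood between them in all 4 libraries.

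Egln3, the prolyl hydroxylase PHD3 that is itself a target of the factor, was 174, 132.5, 83.4 and 116 CPM in neutrophils and 17.2, 29.4, 45.4 and 33.5 CPM in macrophages. In tumour or epithelial cells Egln3 was 69.7 and 101 CPM, 3.06-fold and 4.92-fold above fibroblasts. Bnip3, a receptor for the removal of mitochondria, was 380, 267, 194 and 204 CPM in neutrophils, and its leading type changed with the library. Hif1a, the oxygen-regulated subunit, was highest in T cells in libraries 3 and 4, at 646 and 574.5 CPM, and in libraries 1 and 2 it was lowest of all types in tumour or epithelial cells, at 74.7 and 156 CPM. Oxygen acts on the stability of its protein, which was not measured. Pdk1, the kinase that shuts pyruvate dehydrogenase, was 21.1, 27.8, 37.3 and 42.7 CPM in fibroblasts and 19.99, 24.25, 27.78 and 27.38 CPM in macrophages. It was 12.4 to 19.0 CPM in neutrophils and 22.6 and 57.6 CPM in tumour or epithelial cells. Ankrd37, an ankyrin repeat gene, was 106.5, 41.6, 43.8 and 88.4 CPM in neutrophils and 31.7, 14.6, 36.1 and 40.6 CPM in macrophages, so neutrophils were higher in every library, though by under 2-fold in library 3.

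Fibroblasts led the collagen prolyl hydroxylases, which stabilise the collagen triple helix. P4ha2 was 227 (209.9 to 244.5), 234 (229.5 to 239), 146 (142 to 149) and 195 CPM (191 to 199) in fibroblasts, and no library of neutrophils, monocytes or macrophages exceeded 14.8 CPM. P4ha1 was less selective, with 208, 219.5, 185 and 216 CPM in fibroblasts and 149, 122, 90.8 and 111 CPM in neutrophils. In tumour or epithelial cells P4ha1 reached 222 CPM in library 2 and P4ha2 68.2 CPM, which for P4ha2 was 3.44-fold below fibroblasts. Adm, the vasodilator peptide adrenomedullin, was 117, 95.2, 89.8 and 87.1 CPM in fibroblasts, a narrow range, against 0 to 24.3 CPM in neutrophils, monocytes and macrophages. Endothelial cells of library 1 had 339.6 CPM (290.0 to 395) from 58 cells, and those of library 2 had 41.9 CPM (36.0 to 48.5) from 177 cells.

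Car9, carbonic anhydrase IX, which handles the acid of glycolytic cells, was higher in tumour or epithelial cells than in any other type of their libraries. It was 83.3 CPM (81.2 to 85.4) in library 1 and 256 CPM (246 to 266.5) in library 2, with a UMI in 60.8% and 86.6% of cells. In macrophages it was 14.7, 9.91, 11.1 and 4.64 CPM, with a UMI in 3.90% to 11.6% of cells. Tumour or epithelial cells had a median of 18870 and 35120 UMIs and macrophages of the same libraries 10550 and 5490, and after thinning to 1000 UMIs the shares in libraries 1 and 2 were 7.88% and 21.97% against 1.54% and 1.42%. Neutrophils of libraries 3 and 4, where no tumour or epithelial cells were counted, had 0.618 and 0 CPM. How much of the low levels came from free RNA was not tested. Ndrg1, a stress and differentiation gene, was 341 and 973 CPM in tumour or epithelial cells, 701 CPM (661 to 743) in dendritic cells of library 3 and 519 CPM in macrophages of that library. Neutrophils, at 124.5 to 176 CPM, were below monocytes, at 245 to 421 CPM, in every library.

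**Figure D4:**
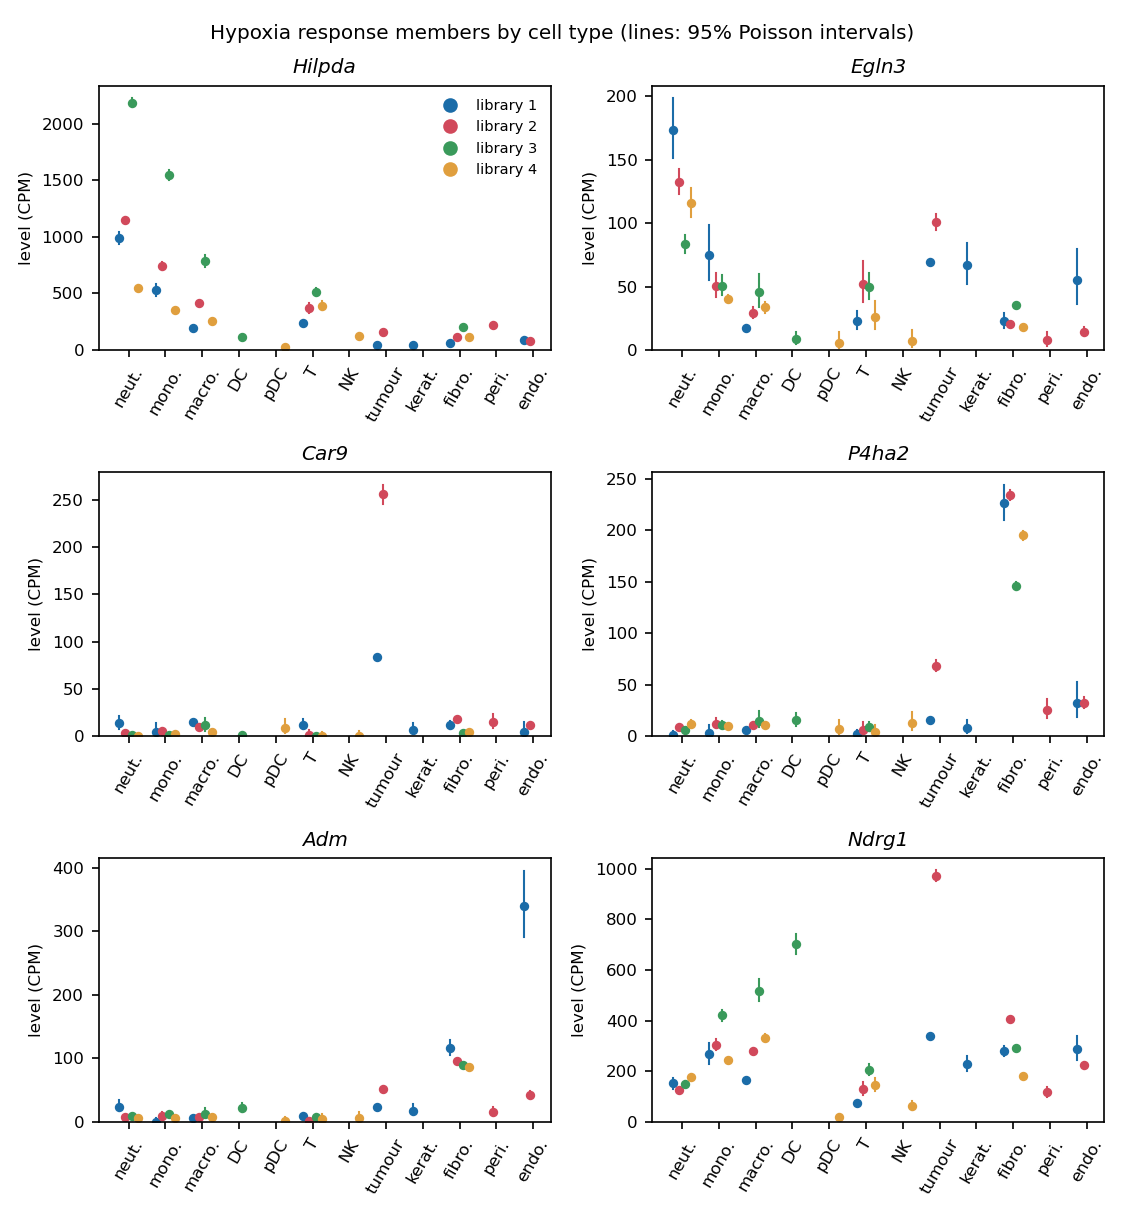
Level (CPM) of 6 hypoxia response members in 12 cell types, 1 point per library, with lines for the 95% Poisson interval. Hilpda and Egln3 were highest in neutrophils among the 4 common types, Car9 in tumour or epithelial cells at 83.3 and 256 CPM, and P4ha2 in fibroblasts at 146 to 234 CPM.

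Pairs of types were then compared over all genes, and a gene was counted when its level differed at least 2-fold the same way in every library with 50 cells of both types. Of 32 members tested, 6 were higher in neutrophils than in macrophages (Pfkp, Pfkfb4, Slc2a1, Slc2a3, Slc16a3 and Hilpda), where 6.88% of 10103 genes were. None was lower, where 27.8% of genes were. With cell types taken from clusters the counts were 2 and 1. The median member was 0.78, 0.16, -0.37 and -0.03 on the log2 scale and the median gene -0.68, -1.04, -0.85 and -0.73, so that most genes were lower in neutrophils on this scale and the members less so. Between neutrophils and monocytes 2 of 29 members were higher (Slc2a3 and Slc16a3), near the background of 6.26%, and 0 were lower beside 23.3%. Without library 3, 4 of 30 were higher, beside 6.95%. Between monocytes and macrophages 0 of 32 members were higher (background 1.62%) and 1 was lower (1.86%), Car9, at 1.196 to 4.96 against 4.64 to 14.7 CPM. The Car9 difference rested on 3 and 4 monocyte UMIs in libraries 1 and 3, and the count was 0 both with cell types from clusters and with cells thinned to 1000 UMIs.

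The comparison of tumour or epithelial cells rested on libraries 1 and 2. Against fibroblasts, 3 of 33 members were higher (Aldoc, Car9 and Egln3), near the background of 10.4%, and 4 were lower (Slc2a3, Slc16a3, P4ha2 and Hif1a), near the background of 13.4%. Without library 1, on library 2 alone, 12 were higher where 16.5% of genes were, and without library 2, 7 were lower where 18% of genes were. Against macrophages, 7 of 33 were higher (Pfkl, Slc16a1, Car9, Egln3, Ndrg1, P4ha2 and Adm, background 19.1%) and 4 lower (Pfkfb3, Slc2a3, Slc16a3 and Hilpda, background 14.2%), and on library 2 alone 22 of 33 were higher where 28.4% of genes were. The members' shares were near the background when both libraries had to show the difference, and on library 2 alone the higher members were more frequent than higher genes.

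Neighbouring pathways were counted from lists chosen with earlier results of these data known. Of the 14 genes of the tricarboxylic acid cycle, which burns acetyl-CoA in mitochondria, 11 were at least 2-fold lower in neutrophils than in macrophages in every library and 0 were higher. Sdhb, a subunit of succinate dehydrogenase, was 68.2, 39.6, 44.5 and 56.7 CPM in neutrophils against 198, 128, 125 and 191 CPM in macrophages. Against monocytes 10 of the 14 were lower. These counts stand beside the 27.8% and 23.3% of all genes that were lower in neutrophils. Of 9 tested genes around pyruvate dehydrogenase 3 were lower (Dlat, Pdp1 and Mpc1, the last a mitochondrial pyruvate carrier) and 0 higher. Of 9 other glycolytic genes 2 were lower (Ldhb and Tigar), and of 6 genes of oxygen sensing 1 (Epas1). Of 7 pentose phosphate genes 1 was lower, Tkt, and of 18 other targets of hypoxia-inducible factor 1 was higher, Ero1l, an oxidase of disulfide bond formation, at 664, 419, 249 and 230.1 against 93.1, 85.1, 115 and 77.7 CPM. Among other sugar carriers Slc2a6 was higher in neutrophils, at 39.2 to 87.9 against 5.39 to 11.8 CPM, and Slc2a8 lower. For these other lists too, 27.8% of all genes were lower and 6.88% higher in neutrophils than in macrophages. Their counts are not read as particular to a pathway.

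The 2 gene groups were then set against each other within a cell type. Each cell was thinned to 1000 UMIs, which left out 1890 cells. Cells with at least 2 UMIs of the hypoxia response members were compared with cells that had none. Hilpda was the largest of these members in neutrophils. In library 3 it was 2189 CPM there, where all hypoxia response members together gave 0.301% of UMIs, so the neutrophil classes leaned on Hilpda. In every cell type and library with 50 cells in both classes, 15 in all, the median glycolytic member was higher in the cells with hypoxia response UMIs, while the median of all genes tested stayed near 0. In neutrophils the median log2 fold of 18 glycolytic members was 1.10, 0.66, 0.57 and 0.93, and that of all genes 0.06, 0.10, 0.02 and 0.03. In fibroblasts it was 0.95, 0.64, 0.67 and 0.51, in monocytes of libraries 2 to 4 0.57, 0.95 and 0.82, and in macrophages of libraries 1, 2 and 4 0.52, 0.94 and 0.73. In library 1, the only one with 50 tumour or epithelial cells in both classes, these gave 0.66.

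Nearly all glycolytic members shared the direction. They were higher by any amount in every library for 16 of 18 in neutrophils, where 16.9% of all genes were, 14 of 15 in monocytes (20.3%), 14 of 16 in macrophages (15.5%), 10 of 10 in fibroblasts (9.5%) and, in the 1 library of tumour or epithelial cells, 18 of 19 (47.9%). The remaining member of the last was lower, as 52.1% of genes were, and in the other types 0 were lower in every library, beside 10.2%, 20.2%, 15.8% and 14.7% of genes. This count was added after the values were seen. At least 1.5-fold in every library were 5 of 18 in neutrophils (Hk1, Pfkp, Tpi1, Pgam1 and Ldha; background 1.07%), 7 of 15 in monocytes (2.08%), 3 of 16 in macrophages (0.654%), 2 of 10 in fibroblasts (0.628%) and 11 of 19 in tumour or epithelial cells of library 1 (10.2%). None was lower by that much, where 0.214%, 0.591%, 0.629%, 0.235% and 13.4% of genes were. At least 2-fold, 0, 2, 0, 0 and 4 members were higher, beside 0.143%, 0.625%, 0.0755%, 0.235% and 2.42% of genes, and 0 were lower, beside 0%, 0.0347%, 0.0503%, 0% and 5.37%. On simulated cells only 38.5% of 200 genes raised 2-fold were called at 1.5-fold in 4 libraries, and 61.0% of the 77 with at least 50 UMIs per class, so the counts miss true changes. Single libraries moved them: without library 3 the neutrophil count was 10 of 18 (background 2.57%), without library 2 the monocyte count 14 of 17 (3.37%), without library 1 the macrophage count 9 of 16 (2.58%), and the fibroblast count 6 of 18 without library 1 (0.998%) or 6 of 10 without library 4 (1.33%). Another random seed for the thinning gave 11 in monocytes, 8 in macrophages and 5 in fibroblasts. Cells with at least 1 hypoxia response UMI in place of 2 gave 3 in neutrophils, 4 in monocytes, 0 in macrophages and 7 in tumour or epithelial cells. With classes made without Hilpda, the counts were 10 in neutrophils, 1 in macrophages and 1 in fibroblasts.

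Tpi1, triose phosphate isomerase, was higher in all 15 comparisons. The fold was 2.68, 2.21, 1.57 and 2.78 in neutrophils, 3.38, 1.56, 1.88 and 1.53 in fibroblasts, and 1.52 in tumour or epithelial cells. Slc2a1 was 3.36-fold, 2.57-fold, 2.08-fold and 1.95-fold higher in fibroblasts and 1.92-fold, 2.63-fold and 7.55-fold in macrophages, but 1.197-fold in neutrophils of library 2. The 7.55-fold compared 266 with 245 thinned macrophages of library 4, and the 3.36-fold 55 with 71 thinned fibroblasts of library 1. In both, the cells without hypoxia response UMIs held few Slc2a1 UMIs. No intervals are given, so the size of these 2 folds is uncertain. Slc16a3 was 1.91-fold, 2.43-fold and 2.31-fold higher in monocytes, and in neutrophils, where its level was highest, 1.15-fold, 0.75-fold, 0.93-fold and 1.11-fold. Pfkfb4 in neutrophils was 0.66-fold, 0.68-fold, 0.90-fold and 1.19-fold. Slc16a3 and Pfkfb4, both led by neutrophils, thus had no common direction with hypoxia response UMIs inside neutrophils, while Pfkp, also led by neutrophils, was 1.88-fold to 2.76-fold higher.

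**Figure D5:**
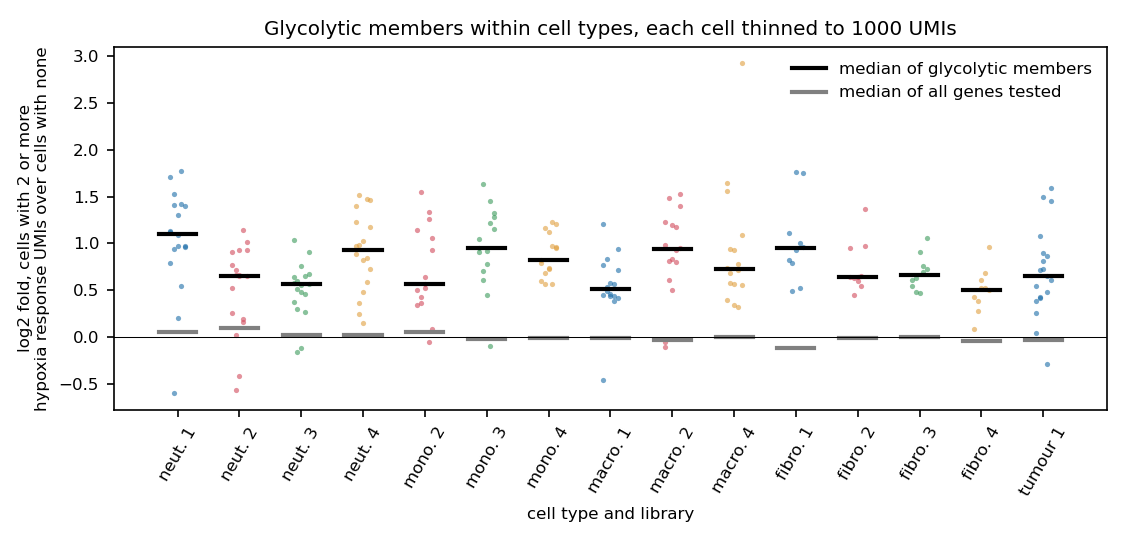
Log2 fold of each glycolytic member between cells with 2 or more hypoxia response UMIs and cells with none, by cell type and library, every cell thinned to 1000 UMIs, with bars for the median glycolytic member (black) and the median of all genes tested (grey). The black bars lie between 0.51 and 1.10 and the grey bars between -0.11 and 0.10.

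Each hypoxia response member was then compared between cells with and without UMIs of the other hypoxia response members. A member's UMI was more frequent in cells with the others in 155 of 180 combinations of member, type and library. The exact binomial intervals, which count cells of 1 library and not replicates, were apart in 47, all in that direction. Ndrg1 was higher in 18 of 18 and Bnip3, Egln3 and Ankrd37 in 16 of 16. Of 16 combinations each, P4ha1 was higher in 15, Pdk1 in 14, P4ha2 in 13, and Car9 and Adm in 11. Hif1a itself was higher in 10 of 17, with 0 intervals apart. In neutrophils of library 1, 41.1% of cells with other hypoxia response UMIs held Hilpda against 20.7% of cells without. In library 3 these shares were 63.7% and 60.3% in neutrophils, and 40.3% and 42.25% in macrophages. Hilpda was higher in 15 of 17. The count was not made for other genes, so no background stands beside it.

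Outside the members, the genes with the largest lowest fold included known targets of low oxygen. Others were not on the list of targets used here, such as Cxcl3, Ppbp, Il1a, Ptgs2 and Saa3 in monocytes. Mmp9 and Ptgs2 in macrophages and Impa2 in neutrophils were not on it either. Of 22 listed other targets, those at least 1.5-fold higher in every library included Bnip3l, Higd1a, Ero1l and Mif in neutrophils (4 of 11 tested), Vegfa, Bnip3l, Higd1a, Ero1l and Mif in monocytes (among 6 of 11), Vegfa, Bhlhe40 and Mxi1 in macrophages (3 of 10), and Ero1l in fibroblasts (1 of 10). In tumour or epithelial cells of library 1 they were 9 of 17, with Vegfa, Bnip3l, Higd1a, Kdm3a, Mxi1 and Ero1l among them. None of the tested targets was at least 1.5-fold lower in every library in any of the 5 types. Of the tricarboxylic acid cycle genes tested, 0 of 5 were higher in neutrophils, 0 of 8 in monocytes, 0 of 13 in macrophages, 0 of 1 in fibroblasts and 0 of 14 in tumour or epithelial cells, where 2 were lower (Sdhb and Fh1). The last count is near the share of all genes lower by that much there, given above. The target counts also stand beside the shares of all genes given above for the same fold. Arg1, arginase 1, was 2364, 1331 and 756 CPM in monocytes with hypoxia response UMIs against 548, 239 and 174 CPM without, and 624, 2590 and 2380 against 201, 633 and 612 CPM in macrophages. In neutrophils Nos2, the inducible nitric oxide synthase, was 85.6, 44.6, 39.2 and 52.6 against 29.0, 10.99, 12.8 and 9.08 CPM. In fibroblasts the growth factor gene Pgf was 255, 105, 101 and 106 against 28.2, 22.4, 16.1 and 23.3 CPM. The lower levels came from 138, 728, 546 and 661 thinned neutrophils and from 71, 358, 310 and 301 thinned fibroblasts. They therefore rest on few UMIs, and no intervals are given. Both genes were named because their folds were among the largest, so the size of these folds is uncertain. In tumour or epithelial cells Ero1l was 279 against 55.8 CPM, and the other 9 genes that led there had at most 22.7 CPM.

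Depth and other markers moved with the classes in part. Before thinning, macrophages with hypoxia response UMIs had a median of 10120, 5224 and 6458 UMIs against 11230, 5944 and 10180 in libraries 1, 2 and 4. The summed level of the 8 neutrophil markers in those macrophages was 902, 1543 and 1669 CPM against 597, 1085 and 1294 CPM. Mmp9, one of those markers, was 68.4, 460.1 and 970 against 6.18, 173 and 184 CPM there. In library 4 the gap for Mmp9 was larger than the gap for the sum. The sum therefore shows no rise of the other markers in library 4, and their levels are not reported here. The summed level of the 8 neutrophil markers in neutrophils was lower with hypoxia response UMIs, by 99350, 80200, 84030 and 102700 against 140600, 112300, 91730 and 111600 CPM. Median mitochondrial shares in neutrophils were 0.544% to 1.01% against 0.530% to 1.02%, and in macrophages 1.06% to 1.28% against 1.05% to 1.66%. The part of these in the folds was not tested.

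Libraries differed within a cell type about as much for the members as for other genes. The highest library was at least 2-fold above the lowest for 16 of 32 members in neutrophils (beside 57% of all genes), 18 of 33 in macrophages (54.7%) and 16 of 33 in fibroblasts (49.7%). In neutrophils 24 of 32 members were highest in library 1, 7 in library 4 and 1, Hilpda, in library 3. In macrophages 14 of 33 were highest in library 3 and 15 lowest in library 2. How often other genes were highest or lowest in each library was not counted. Library 1 also stood apart in the clusters. A cluster named neutrophil had 804 of its 823 cells from library 1, and a cluster named macrophage 1603 of 1623. Since no library could be tied to a treatment, these differences carry no label.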

How the data were processed

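Tumour cells sorted for CD45 were profiled with 10x Genomics 3' chemistry in 4 samples. The authors deposited 1 matrix of raw UMI counts, not scaled per cell, made with Cell Ranger. The header names version 6.1.2, the labels' protocol 3.0.2 and the submitters' processing notes 2.1.1 with build mm10. All 55450 identifiers were found in GENCODE vM21, and promoters came from RefSeq (GRCm38.p6). The protocol states 15603 cells after the filter of 300 genes and 15% mitochondrial counts, which left 32133 of the 33064 barcodes here. The libraries held 69255999 to 108646352 UMIs. The members and lists were chosen with earlier results of these data known, and the member levels had been seen before the summary counts and the isozyme limit of 20 points were set.

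Per cell, the level of each marker was the square root of UMIs per 10000, divided by its 90th percentile among cells that held it and capped at 1. A cell took the type with the highest mean if that was at least 0.25, the next was at most 0.7 of it and 3 markers had a UMI. These limits were set after the gate had been compared with clusters. Members tested against all genes needed 10 UMIs in 1 of the 2 types in every library. Genes outside the members were named as the 10 with the largest lowest-library fold within a type. The fold of 1.5 within types was not part of the design. Doublets were left in, and an alternative removed 1606 cells with the highest 5% of Scrublet scores. Intervals were exact (Poisson or Clopper-Pearson, 95%). Folds were tested on simulated data: 98% of 100 genes raised 3-fold between neutrophils and macrophages were called among 11447 genes, 0% of 100 raised 1.5-fold and 0% of unchanged genes. Clusters used 2000 variable genes, 30 components, 20 neighbours and a Leiden resolution of 1, and took the name of most of their gated cells, so they are not independent of the gate. Python 3.11.15, numpy 2.4.6, scipy 1.17.1, pandas 2.3.3, scanpy 1.11.5, igraph 0.11.9 and matplotlib 3.10.9 were used. Values of some listed genes are not reported here.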

Additional observations from a re-analysis of the deposited data

Results flagged for a closer look

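Cells that no marker gate named lay outside the comparisons and still carried the hypoxia response members. Their median share of UMIs was 0.0892%, 0.249%, 0.167% and 0.115% in libraries 1 to 4, above the 0.145% of neutrophils of library 2 in that library and below the 0.222% of neutrophils of library 3 in that one. The ungated cells numbered 1402, 2187, 1230 and 1516.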

How the results depend on the processing

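Of 264 values of 31 results under other settings, 214 lay within 1.5 times the value given and 50 did not. The counts of members led by 1 type, by neutrophils or by fibroblasts, of members 2-fold apart between types, and of libraries where the glycolytic median exceeded that of all genes moved by no more than that under the settings tried, except that monocytes thinned to 2000 UMIs left 1 library. Cell types taken from clusters gave 2 members higher and 1 lower in neutrophils than in macrophages, 1 higher and 1 lower than in monocytes, and 0 lower in monocytes than in macrophages, as did thinning to 1000 UMIs (0). Thinning gave 1 and 2 libraries for the hypoxia response share of neutrophils and monocytes above macrophages. At 1.5-fold, 1 member was lower in neutrophils and 2 were higher in monocytes than in macrophages, 5 were higher in neutrophils than in monocytes, and 7 in tumour or epithelial cells than in fibroblasts. With no minimum of UMIs, 1 was lower in neutrophils than in macrophages. The stricter cell filter split 1 isozyme family in place of 2. For glycolytic members 1.5-fold higher within a type, the stricter filter gave 3 in neutrophils and 5 in macrophages, 1 marker more and doublet removal 5 in macrophages, and a limit of 1 hypoxia response UMI 3, 4, 0 and 7 in neutrophils, monocytes, macrophages and tumour or epithelial cells. Thinning to 2000 UMIs gave 17, 10 and 6 in monocytes, macrophages and fibroblasts, and another random seed 11, 8 and 5. Without Hilpda, chosen after seeing the data, they were 10 in neutrophils, 1 in macrophages and 1 in fibroblasts, and at 2-fold, also chosen later, 0, 2, 0, 0 and 4 in neutrophils, monocytes, macrophages, fibroblasts and tumour or epithelial cells. The cause of these shifts was not tested.

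Leaving out 1 library at a time gave 6 to 9 members higher and 0 to 1 lower in neutrophils than in macrophages (1 without library 1 or 3), 0 to 1 higher in monocytes than in macrophages, 2 to 4 higher and 0 to 1 lower in neutrophils than in monocytes, and in tumour or epithelial cells 3 to 12 higher and 4 to 7 lower than in fibroblasts and 7 to 22 higher than in macrophages. Within types it gave 5 to 10 in neutrophils, 7 to 14 in monocytes, 3 to 9 in macrophages and 2 to 6 in fibroblasts. No paired analysis was possible because no library is tied to a sample and no test was run. Depth limits low members: 2 UMIs carried Slc2a3 in macrophages of library 3.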
